A study of Mus musculus with 2 samples.

Results

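The 10 genes described here are genes of pigment cells: Tyr, Tyrp1 and Dct, which encode the enzymes of melanin synthesis, Pmel, Mlana, Slc45a2 and Rab38 of the melanosome, the transcription factor gene Mitf, the channel gene Trpm1 and the receptor gene Kit. They were chosen by symbol, with earlier results of these data known, and all 10 were found among the 43346 genes of the files, together with 45 transcripts. The data are total RNA sequencing of the facial prominences, the swellings around the embryonic mouth, from healthy mouse embryos of strain B6NCrl at 11.5 days. There were 2 libraries in 1 group. Tissue of 109 embryos went into library 1 and tissue of 88 into library 2, males and females together, and each was made from 10 ng of RNA longer than 200 nt. No treatment, mutant or other tissue was set against them, so no test between groups was made, no p-value is given, and differences between the libraries describe these 2 pools.

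Melanin is made in melanosomes, organelles that form on fibrils of the Pmel protein and receive the melanin enzymes as cargo. In the mouse embryo it is made by cells of different origin: the retinal pigment epithelium, which comes from the optic cup, and melanocytes, whose precursors, the melanoblasts, leave the neural crest and migrate beneath the ectoderm. MITF activates pigment genes in both. It is transcribed from several promoters, each with its own first exon, and the M promoter, the last along the gene, is used mainly by the melanocyte lineage, whereas upstream exons such as A and H are used in retinal pigment epithelium and many other cells. Kit, the receptor for Kit ligand, is needed by migrating melanoblasts and is also made by mast cells, blood progenitors and germ cells. The other 9 genes are transcribed in both pigment cell types.

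Library 1 held 28627217 expected counts on genes and library 2 held 29281440, where an expected count is the number of reads estimated for a gene after reads that match several places are divided. Levels are in TPM, a share of all transcripts that is corrected for length, so that genes can be set side by side. A ratio between the libraries is that of expected counts after TMM scaling, and its bracket is an exact 95% interval (Clopper-Pearson) for how the counts divide between libraries, which leaves out the spread between pools. Genes of facial mesenchyme and ectoderm were present in both libraries: all 6 checked, among them Msx1 (278 and 248 TPM in libraries 1 and 2) and Epcam (56.4 and 52.1), exceeded 1 TPM. The labels used here do not mention the eye.

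First exons of Mitf are shown for 3 transcripts because the deposited transcripts differ in them. Each line gives the coding part of a first exon in GENCODE M21 on GRCm38 (mm10), 5′ to 3′ on the plus strand of chromosome 6, with the start codon in capitals.
Mitf-202, exon A, chr6:97807184-97807287: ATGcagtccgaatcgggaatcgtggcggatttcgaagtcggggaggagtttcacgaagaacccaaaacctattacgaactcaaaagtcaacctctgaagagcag
Mitf-203, exon H, chr6:97929878-97929933: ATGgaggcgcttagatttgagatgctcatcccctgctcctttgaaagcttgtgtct
Mitf-201, exon M, chr6:97991921-97991953: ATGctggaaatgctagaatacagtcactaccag

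Of the 10 genes, 9 reached 1 TPM in both libraries, as did 32.0% of all genes and 58.5% of protein-coding genes. Slc45a2 was the exception, above 1 TPM in library 1 alone. Levels spanned a wide range, from Pmel, above 81.5% of protein-coding genes, to Slc45a2, above 38.0% of them. Pmel and Trpm1 led in library 1, and Pmel and Kit in library 2.

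**Figure D1:**
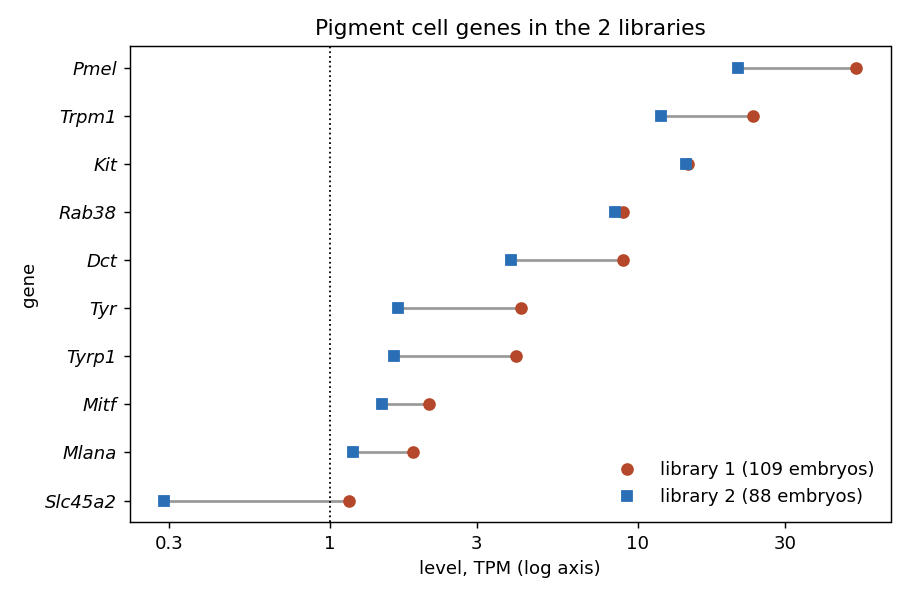
Level in TPM (log axis) of each of the 10 genes in library 1 (circles) and library 2 (squares), 1 point per library, with a dotted line at 1 TPM. Points of Kit and Rab38 nearly coincide, while those of Pmel (51.0 and 21.2) and Slc45a2 (1.15 and 0.29) lie far apart.

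The melanin enzymes were all transcribed and were all higher in library 1. Dct (ENSMUSG00000022129.3, chromosome 14, 118012790 to 118052244), the dopachrome tautomerase, stood at 8.96 TPM in library 1 and 3.86 in library 2 (6.41 ± 3.61, mean ± SD, n = 2). Tyr (ENSMUSG00000004651.5, chromosome 7, 87424771 to 87493512), the tyrosinase that starts melanin synthesis, stood at 4.17 and 1.67 TPM (2.92 ± 1.77). Tyrp1 (ENSMUSG00000005994.10, chromosome 4, 80834123 to 80851719), the tyrosinase-related protein, was close to Tyr at 4.01 and 1.62 TPM (2.82 ± 1.69). Dct thus lay above the other two in each library, and the order of Tyr and Tyrp1 was not separated beyond their spread. The ratio of library 1 to library 2 was 2.28 (1.90 to 2.74) for Dct, 2.44 (1.95 to 3.07) for Tyr and 3.01 (2.27 to 4.04) for Tyrp1.

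Among genes of the melanosome itself, Pmel and Slc45a2 followed the enzymes and Rab38 did not. Pmel (ENSMUSG00000025359.9, chromosome 10, 128704195 to 128720238), the fibril protein, held 51.0 TPM in library 1 and 21.2 in library 2 (36.1 ± 21.1), from 2124 and 898 counts, a ratio of 2.36 (2.18 to 2.56). Its annotated span overlaps Dgka on the opposite strand by 105 bp and Cdk2 by 837 bp, and Dct overlaps the antisense gene 4930435M08Rik by 1891 bp. The overlap with Cdk2 ends at 128705031, before the only Pmel transcript of the files, which starts at 128706258 in GENCODE M21. No source used here says whether strand was kept, so reads of the other partners could not be told apart by strand. The posterior SD was 0% of the count for Pmel and Dct in both libraries, so none of their counts was shared with other quantified sequences. Slc45a2 (chromosome 15, 11000721 to 11029233), a transporter of the melanosome membrane, was at 1.15 and 0.29 TPM, with a ratio of 3.83 (2.24 to 6.87). Part of its 67.8 and 17.7 expected counts was shared with other sequences, with a posterior SD of 8.80% and 17.3% of the count.

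Mlana (chromosome 19, 29697824 to 29708634), a melanosome membrane protein known as a melanocyte antigen, was at 1.86 and 1.19 TPM from only 20 and 13 counts. Its ratio of 1.54 (0.727 to 3.36) could not be told from 1 at this depth. Rab38 (ENSMUSG00000030559.7, chromosome 7, 88430273 to 88491572), a small GTPase that carries melanin enzymes to the melanosome and is also active in other cells, was nearly equal at 8.92 and 8.42 TPM (8.67 ± 0.354). Its ratio was 1.04 (0.868 to 1.25).

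Trpm1 and Kit, the channel and the receptor, behaved differently from each other. Trpm1 (ENSMUSG00000030523.14, chromosome 7, 64153835 to 64269775), a cation channel gene of melanocytes and retina that hosts Mir211 in an intron, was at 23.6 TPM in library 1 and 11.9 in library 2 (17.7 ± 8.30), a ratio of 2.26 (2.04 to 2.51). Kit (ENSMUSG00000005672.8, chromosome 5, 75574916 to 75656722) was at 14.6 and 14.3 TPM (14.4 ± 0.205), from 1509 and 1423 counts, a ratio of 1.06 (0.984 to 1.14). Mitf (ENSMUSG00000035158.11, chromosome 6, 97807052 to 98021349) stood low, at 2.10 and 1.48 TPM (1.79 ± 0.438), and its 143 and 123 counts gave a ratio of 1.16 (0.906 to 1.49). In bulk RNA, fewer cells of a type and less RNA per cell cannot be told apart, so none of these ratios separates them.

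Of the 10 genes, 7 were at least 1.5-fold higher in library 1, where 6.81% of 16671 genes with at least 20 counts passed the same size, and none was 1.5-fold higher in library 2 (4.77% of those genes). At 2-fold toward library 1 the count was 6, with 2.86% of all genes. The genes were chosen with some of these values known, so the count is a description. Of the 9 genes shared with retinal pigment epithelium, 7 made up that count, and their median log2 ratio was 1.19 against 0.00 over all genes. The interval lay wholly above 1 for 6 of the 10, and so did that of 18.7% of all genes, while none of the 10 had an interval wholly below 1 (21.2%). Closest to the limit of 1.5 were Mlana just above it and Mitf below it. Each of the 10 ratios kept its side of 1.5 under scaling by gene totals, spike-ins or DESeq2 size factors.

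**Figure D2:**
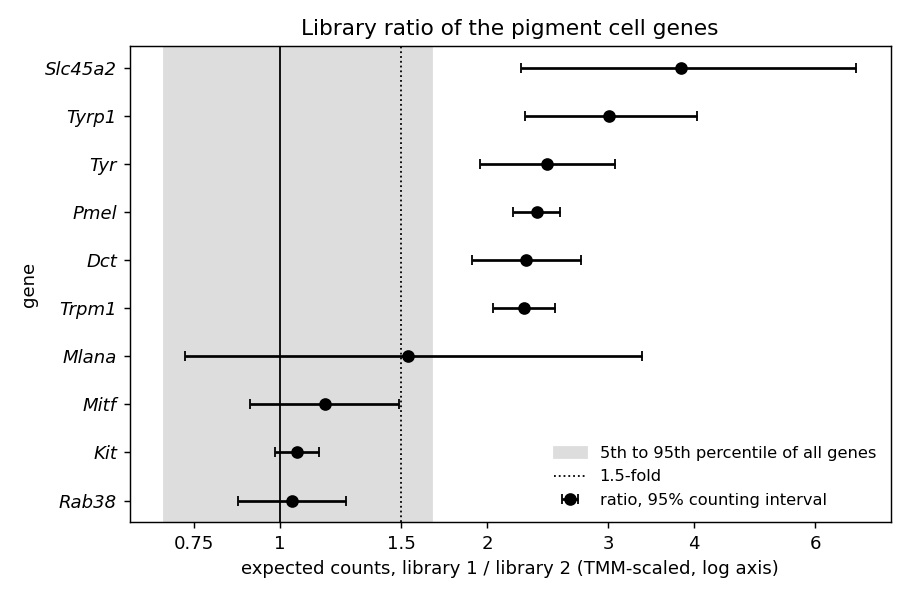
Ratio of TMM-scaled expected counts, library 1 over library 2 (log axis), for each of the 10 genes, with the 95% counting interval as bars. The grey band spans the 5th to 95th percentile of 16649 genes with counts in both libraries (0.679 to 1.66), and the intervals of Slc45a2, Tyrp1, Tyr, Pmel, Dct and Trpm1 lie beyond it.

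Although the melanin enzyme genes and Pmel differed in level between the pools, their proportions to each other differed little. Pmel exceeded Dct by 5.69 times in library 1 and by 5.49 times in library 2, Tyr by 12.2 and 12.7 times, and Tyrp1 by 12.7 and 13.1 times, all in TPM. The Tyrp1 value depends on how reads were assigned. In library 2, 0.45 of its 1.62 TPM came from 4.02 counts on the 529 nt ENSMUST00000133932.1, which was given 0 in library 1. Relative to Pmel, the change between libraries in counts was 0.965 (0.791 to 1.18, exact 95% interval of the odds ratio) for Dct, 1.03 (0.815 to 1.32) for Tyr, 1.27 (0.949 to 1.73) for Tyrp1 and 0.958 (0.841 to 1.09) for Trpm1. Each of these intervals holds 1, which does not show that the genes moved alike. For Slc45a2 it was 1.62 (0.932 to 2.87) and for Mlana 0.650 (0.306 to 1.43).

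Kit, Rab38 and Mitf departed from that proportion. Relative to Pmel, their change was 0.448 (0.402 to 0.499), 0.440 (0.361 to 0.537) and 0.492 (0.379 to 0.639), intervals that lie below 1. Pmel was thus 3.50 times Kit in library 1 and 1.48 times Kit in library 2, and Trpm1 was above Kit in library 1 (1.62 times) and below it in library 2 (0.831 times). Rab38 kept to Kit, at 0.612 and 0.590 of its TPM.

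The genes whose ratio lay nearest to that of Pmel, among protein-coding genes with a mean of at least 5 TPM, were Dct, Trpm1, Wfdc1, Dlg3 and Hist2h2aa1, within 0.152 on the log2 scale. With 2 libraries this likeness is that of a single ratio per gene. Ranked by ratio toward library 1 among 9936 such genes, Pmel was number 10, Dct 11 and Trpm1 12. Among the genes above them were the lens crystallin genes Cryaa, Crybb1, Crybb3 and Cryba1 (ratios 8.99 to 5.55), then Aldh1a1, Mamdc4, Hist1h2ah and Wfdc1 (2.78 to 2.46). Kit was number 2626 and Rab38 number 3159.

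Several lens and retina genes were also higher in library 1. Of 12 lens genes, 9 had at least 20 counts, with a median ratio of 5.55 over these 9. Of the 9, 6 were 1.5-fold higher in library 1, as were 6.81% of all genes with at least 20 counts. Cryab (1.31), Bfsp1 (0.998) and Bfsp2 (1.21) did not pass. The summed level of the 12 was 217 TPM in library 1 and 39.1 in library 2, led by Cryaa (118 and 12.9) and Cryba1 (45.4 and 7.95), with Cryab (12.1 and 9.04) and Crybb3 (15.8 and 2.95) next. Lim2 had no count, and Bfsp1 and Mip stayed below 1 TPM. Of 10 genes of optic vesicle and neural retina, 4 passed 1.5-fold toward library 1 (6.81% of all genes) and none toward library 2 (4.77%). Their sums were 79.7 and 50.4 TPM. Pax6 stood at 20.0 and 10.5 TPM, whereas Lhx2 (14.1 and 11.7), Rax (10.3 and 7.76) and Six3 (7.93 and 7.13) were closer, and Pax2 stayed below 1 TPM. The part of eye tissue in the pigment gene ratios was not tested.

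Other genes of retinal pigment epithelium gave a mixed picture. Of 10 listed, 7 were detected in both libraries, as were 58.5% of protein-coding genes. The 7 with enough counts had a median log2 ratio of 0.40, and 3 of them were 1.5-fold higher in library 1 (6.81% of all genes with enough counts). These were Ttr, the transthyretin gene (8.01 and 1.63 TPM), Rlbp1, which encodes a retinal-binding protein (2.70 and 1.35), and the homeobox gene Otx1 (7.08 and 4.47). Its relative Otx2, needed for the epithelium and also made in forebrain, went the other way at 11.99 and 15.1 TPM, a ratio of 0.812 (0.718 to 0.919). Best1 was at 1.26 and 1.43 TPM, a ratio of 0.863 (0.581 to 1.28). Cdh3 was near equal (9.14 and 8.94), and Rdh5 stood at 8.70 and 7.05 TPM, a ratio of 1.32 (1.01 to 1.73). Rpe65, the isomerase of the visual cycle, and Rgr had no count at all. A limit of 3 counts puts Rpe65 at no more than 0.0974 TPM and Rgr at no more than 0.0938 in library 1. Lrat had 1 count in each library.

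Most genes listed for melanoblasts and their crest source, among them the ligand genes Edn3 and Kitl, were not 1.5-fold higher in library 1. The part of melanoblasts in the levels of these genes was not tested. Of 10 listed, 8 were detected, and 1 of 9 with enough counts passed 1.5-fold toward library 1, with a median log2 ratio of -0.08. Over all genes, 6.81% passed that size, and 58.5% of protein-coding genes were detected. The counting interval lay below 1 for 3 of the 9 (Ednrb, Kitl and Lef1) and for 21.2% of all genes. Sox10, which activates Mitf and Dct in melanoblasts, stood at 9.25 and 8.47 TPM, a ratio of 1.07 (0.942 to 1.22). The endothelin receptor gene Ednrb was at 25.4 and 28.1 TPM and its ligand gene Edn3 at 14.6 and 13.9. Kitl, the ligand of Kit, was at 11.5 and 12.4 TPM, near Kit itself. Lef1 (56.4 and 65.4) and Snai2 (42.2 and 44.0) were the most abundant of the list. The member past 1.5-fold was Foxd3, from 57 and 36 counts, with a ratio of 1.58 (1.02 to 2.47). Mc1r, the receptor for melanocyte-stimulating hormone, had under 3 counts in each library.

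**Figure D3:**
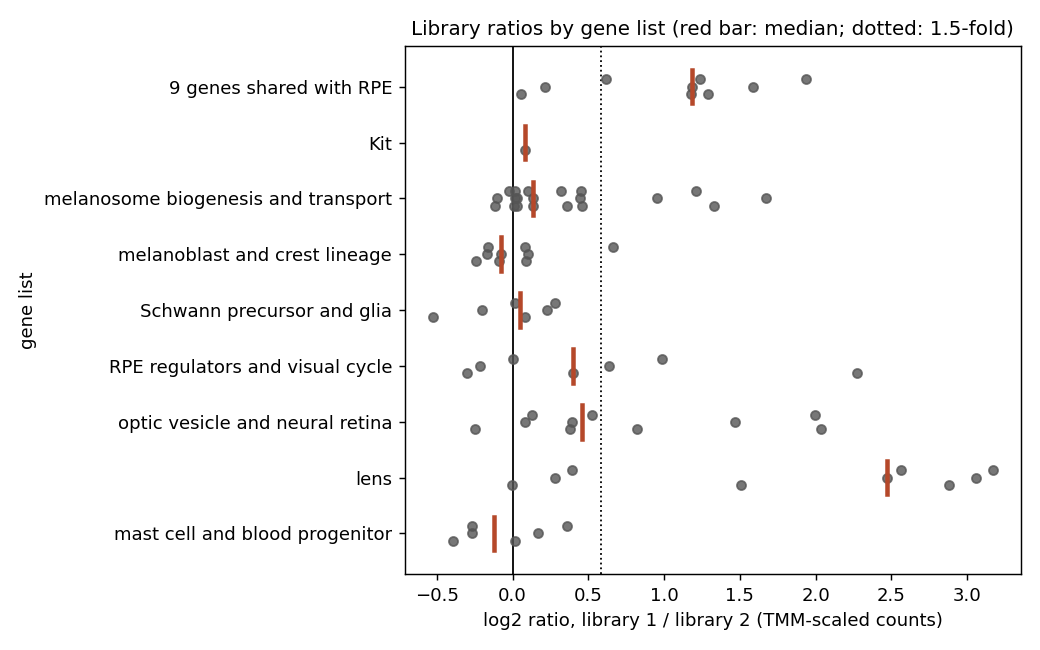
Log2 ratio of library 1 over library 2 for genes with at least 20 counts (1 point per gene), by list, with the list median as a red bar, 0 as a solid line and 1.5-fold as a dotted line. The germ cell, MiT/TFE and facial mesenchyme and ectoderm genes are not drawn. The pigment genes shared with retinal pigment epithelium (RPE, median 1.19) and lens genes (2.47) lie to the right, and Kit (0.08) and the melanoblast list (-0.08) lie near 0.

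In lists of other cells that make Kit or share genes with melanoblasts, no gene with at least 20 counts was 1.5-fold higher in library 1. Among all genes with that many counts, 6.81% were, and 58.5% of protein-coding genes were detected. Of the mast cell and blood progenitor list, 5 of 10 were detected, with sums of 82.6 and 79.2 TPM. The progenitor genes Cd34 (54.5 and 54.0), Gata2 (16.7 and 14.6), Myb (6.32 and 4.79) and Gata1 (3.06 and 3.75) carried nearly all of it, and the intervals of Gata2 (1.12, 1.03 to 1.23) and Myb (1.29, 1.11 to 1.48) lay above 1. Of the mast cell genes, Hdc was detected, at 1.06 and 1.07 TPM from 39 and 51 counts, a ratio of 0.763 (0.490 to 1.18). Fcer1a, Cma1 and Tpsb2 had no count, which allows up to 0.180 TPM for Fcer1a in library 1. Cpa3 (0.72 and 0.85) and Ms4a2 (0.17 and 0.12) stayed below 1 TPM. Of 6 germ cell genes, Ddx4 and Dazl stayed below 1 TPM, Tfap2c stood at 13.5 and 12.5, Nanos3 at 2.09 and 1.97 and Prdm1 at 1.60 and 1.38 (ratio 1.37, 1.08 to 1.74). Dazl, with 13 and 2 counts, had a ratio of 6.49 (1.47 to 59.2) and was under the minimum of 20 counts. Dnd1 was lower in library 1 (0.50 and 1.11 TPM, ratio 0.456, 0.236 to 0.846). Their part in the level of Kit was not tested. Schwann precursors can also give rise to melanoblasts. Of 7 genes of Schwann precursors and glia, 4 were detected and none of the 6 with at least 20 counts passed 1.5-fold either way, with Fabp7 at 162 and 183 TPM, Gfra3 at 4.59 and 3.70 and Cdh19 at 1.97 and 1.53.

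Of 20 further genes of melanosome formation and transport, 16 were detected, as were 58.5% of protein-coding genes. At least 1.5-fold higher in library 1 were 4 of the 20, and 6.81% of all genes with at least 20 counts. These were Gpnmb, a relative of Pmel (5.55 and 2.16 TPM, ratio 2.52, 2.10 to 3.03), Oca2, which controls melanosome pH (1.75 and 0.74, ratio 2.31, 1.63 to 3.33), the exchanger gene Slc24a5 (5.93 and 3.08, ratio 1.94, 1.54 to 2.45) and Mlph, which links melanosomes to myosin (16 and 5 counts, ratio 3.19, 1.12 to 11.1). None passed 1.5-fold toward library 2 (4.77% of all genes), and the list's median log2 ratio was 0.13. The most abundant members, Dtnbp1 (54.8 and 54.5 TPM), Bloc1s6 (48.0 and 45.8), Ap3d1 (34.6 and 33.7) and Ap3b1 (33.0 and 31.7), which serve lysosome-related organelles in many cells, had ratios from 0.985 to 1.02. Gpr143 and Mlph stayed below 1 TPM in both libraries.

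Among Mitf transcripts, Mitf-202 took the largest share in both libraries, and Mitf-201 had expected counts in library 1 and none in library 2. Of the deposited Mitf transcripts, 4 are coding with distinct first exons, starting 0, 122741, 133860 and 184734 nt along the gene. By the isoform percentage, the share of a gene's TPM given to a transcript, Mitf-202 (exon A, 526 residues) took 51.4% in library 1 and 71.0% in library 2. Mitf-201 (exon M, 419 residues), whose coding start is printed above, took 34.8% in library 1 and 0% in library 2. Mitf-203 (exon H, 510 residues) took 3.43% and 29.0%, and Mitf-204 3.43% and 0%. The retained-intron transcript Mitf-206 took 6.96% and 0%. Coding transcripts with an upstream first exon together held 58.3% in library 1 and 100% in library 2.

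These shares rest on few reads. Mitf-201 had 27.3 expected counts in library 1 and 0 in library 2, where the 0 is an estimate from divided reads and not an observed absence. The authors' posterior means were 18.5 ± 7.23 and 2.44 ± 2.58 counts (posterior SD), a difference of 16.1 ± 7.68 that covers counting and assignment and not the pools. Mitf-205, annotated for nonsense-mediated decay, starts within the first exon of Mitf-201. It had no expected counts in either library, but posterior means of 4.6 ± 4.12 and 2.53 ± 2.77. Mitf-201 is therefore not the only transcript in the files that starts there. Mitf-202 was steady, at 98.9 ± 7.41 and 99.5 ± 6.64. For Mitf-203 (8.29 ± 7.07 and 12.8 ± 6.44) and Mitf-204 (8.80 ± 6.69 and 5.52 ± 5.16) the libraries overlapped. Mitf-202 also differs at its other end: it alone runs 2642 nt further than the other coding transcripts, 54.1% of its 4881 nt, so reads there count for Mitf-202 whichever promoter they came from. Its share therefore does not measure exon A by itself.

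**Figure D4:**
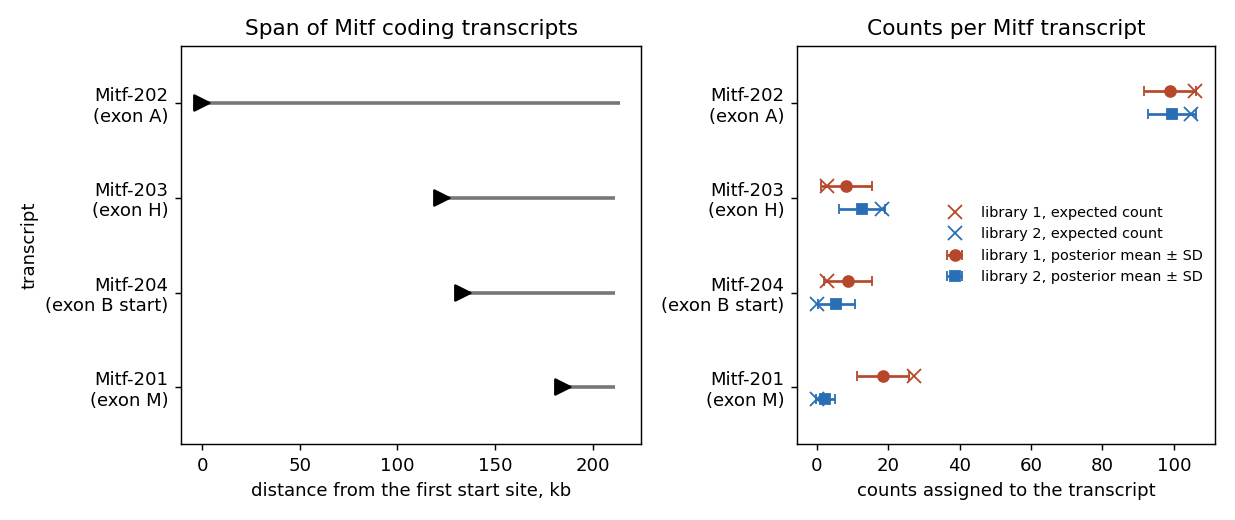
Left, the span of each coding Mitf transcript as distance in kb from the first start site, with an arrowhead at its own start. Right, counts assigned to each transcript in library 1 and library 2, with crosses for expected counts and points with bars for posterior means with posterior SD: Mitf-202 is near 99 in both, and Mitf-201 is at 18.5 and 2.44.

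None of the other MiT/TFE genes, relatives of Mitf that bind the same kind of site, passed 1.5-fold. Tfe3 stood at 12.3 and 12.4 TPM, above Mitf, while Tfeb (2.11 and 1.57) and Tfec (1.22 and 1.31) were in its range. Their ratios, 1.07 (0.960 to 1.19), 1.27 (0.890 to 1.82) and 0.911 (0.585 to 1.42), all had intervals that hold 1.

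For Kit the total was stable but the assignment between its full-length transcripts was not. Kit-201 (979 residues) and Kit-204 (975 residues) share 19 of 21 exons and differ by 39 nt at the start of exon 1 and by 12 nt at the end of exon 9, a known splice choice that adds 4 residues to the outer part of the receptor. The stretch across the junction of exons 9 and 10, from chr5:75639117-75640522 with the intron removed, is printed from GENCODE M21 on GRCm38, 5′ to 3′ on the plus strand, with the 12 extra bases in capitals.
Kit-201: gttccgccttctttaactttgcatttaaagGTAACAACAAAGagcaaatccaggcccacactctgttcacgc
Kit-204: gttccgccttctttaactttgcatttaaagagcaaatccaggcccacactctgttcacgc

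Kit-201 took 60.9% of Kit's TPM in library 1 and 32.9% in library 2, and Kit-204 took 37.5% and 58.9%. The leading Kit transcript therefore changed between pools, as it did in 9.42% of 9588 detected genes with several transcripts. In posterior mean counts Kit-201 held 957 ± 96.3 and 550.3 ± 127, and Kit-204 543 ± 95.7 and 851 ± 127. Only reads over the 12 nt or the first 39 nt can tell these transcripts apart, so most reads were divided by estimation. Whether the splice choice itself differed was not tested.

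The remaining genes gave little isoform information. Tyr, Dct, Pmel, Mlana, Slc45a2 and Rab38 have 1 transcript each in the files. ENSMUST00000102831.3 led Tyrp1 in both libraries with 81.1% and 72.4%, and the short ENSMUST00000133932.1 was given 0% and 27.6%, the latter from 4.02 counts. For Trpm1, the files list 22 transcripts, of which 2 match GENCODE M21 and 12 had no expected count. ENSMUST00000107516.4 led with 42.0% and 42.9%, followed by ENSMUST00000032737.7 (28.3% and 19.1%) and ENSMUST00000141574.3 (13.9% and 25.5%), entries of 2765, 2575 and 1992 nt. The longest entry, ENSMUST00000085222.7 of 5711 nt, had no expected count in either library, which is an estimate from divided reads. Its posterior means were 8.5 ± 5.9 and 0.49 ± 0.85 counts. ENSMUST00000107519.3 of 5493 nt had 23.65 expected counts in library 1 and 0 in library 2.

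Promoters of the melanin enzyme genes are shown because these genes lay together in the library ratios and because their M-box, an E-box that MITF binds, is well known. RefSeq promoters of GRCm38.p6 were found for 6 of the 10 genes. The 250 bases before the start are printed 5′ to 3′ on the gene's strand, with TCATGTG, the core searched on both strands, and its reverse complement CACATGA in capitals.
Tyr, chr7:87493513-87493762, minus strand: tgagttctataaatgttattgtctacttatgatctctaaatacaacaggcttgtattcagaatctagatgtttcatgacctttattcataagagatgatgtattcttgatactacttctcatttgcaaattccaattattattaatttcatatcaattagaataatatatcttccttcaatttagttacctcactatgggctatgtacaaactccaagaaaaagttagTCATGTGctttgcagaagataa
Tyrp1, chr4:80833963-80834212, plus strand: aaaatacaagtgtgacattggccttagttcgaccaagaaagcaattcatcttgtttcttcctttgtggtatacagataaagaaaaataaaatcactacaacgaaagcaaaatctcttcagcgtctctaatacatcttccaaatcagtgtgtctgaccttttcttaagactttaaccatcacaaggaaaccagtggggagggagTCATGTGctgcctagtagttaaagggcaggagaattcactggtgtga
Dct, chr14:118052247-118052496, minus strand: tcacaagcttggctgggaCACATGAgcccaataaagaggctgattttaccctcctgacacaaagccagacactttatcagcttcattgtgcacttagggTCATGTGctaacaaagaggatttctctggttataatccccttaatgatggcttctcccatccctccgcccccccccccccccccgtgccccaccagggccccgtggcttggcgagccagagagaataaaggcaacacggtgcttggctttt

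TCATGTG began 22 bases before the start of Tyr, 47 before that of Tyrp1 and 151 before that of Dct, which also holds it on the opposite strand. The core was found in 3.25% of 32817 promoter windows of this length. Of the other genes, Trpm1 held the core 142 bases before the start of 1 of its 2 windows, and the windows of Kit (2) and Mitf (3, those of the first, H and M starts) held none. A match describes these letters and shows no binding.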

How the data were processed

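Per the notes deposited with the files, each library was aligned to the transcriptome and quantified on mm10 with GENCODE M4. Column names are those of RSEM; aligner, quantifier versions and strandedness are not given in the sources used here. The deposited expected counts, posterior mean counts with their SD, TPM (over every entry, spike-ins included, 15.4% and 15.8% of TPM) and isoform percent were used as the authors gave them. Symbols and positions came from GENCODE M21 by identifier without version (42462 of 43346 genes). Ratios used all genes, with TMM from edgeR 4.0.16 (R 4.3.3), at least 20 counts over both libraries and a size rule of 1.5-fold, checked on simulated counts. The simulated counts held counting error alone, without spread between pools or divided reads, so the check does not cover these. DESeq2 1.42.0 size factors were an alternative. Ratios relative to Pmel are ratios of expected counts, with conditional exact intervals from counts rounded to whole numbers (SciPy 1.17.1). The labels number the libraries as biological replicates 1 and 2.

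The genes and lists were chosen with earlier results of these data known. Named were all 10 genes, Mitf transcripts of at least 1% and other transcripts of at least 10% of their gene, the 4 most abundant members of each list and those below 1 TPM (where 5 or fewer), the 10 genes with the largest ratio toward library 1 and the 5 nearest to Pmel, except that some of these items are not reported here. Other list genes and transcripts named, and the motif searched, were picked after values were seen. Reads carried no molecular identifiers in these files, so they may not be independent molecules, and intervals and limits hold for counting error alone.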

Additional observations from a re-analysis of the deposited data

How the results depend on the processing

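Over 84 recomputed values, 77 stayed within their limits (the spread between libraries, the counting interval, or 1.5 times a count). This tally does not measure robustness. With 1 library left out, a level or share is that of the other library, which cannot pass a limit set by their spread. That limit is also wide: the share of Mitf-201 counted as within it at 1.15% by posterior mean TPM, in place of 17.4%. The number of genes 1.5-fold higher in library 1 was 7 under every scaling and with posterior counts or TPM, 5 with at least 100 counts, and 6 were 2-fold higher. At a limit of 2 TPM, 5 genes were detected in place of 9, and 9 to 10 with either library left out. The median level of the 10 genes, averaged over the libraries, was 4.66 TPM, 7.36 by posterior mean TPM, and 2.77 to 6.55 with either library left out. Posterior mean TPM gave a mean of 25.5 for Mitf in place of 1.79, because a 101 nt entry with an effective length of 2 nt took 91.2% and 93.3% of it. By that measure the share of Mitf transcripts with an upstream first exon was 5.64% in place of 79.1%. Posterior counts over transcripts of at least 200 nt, added after seeing the data, gave 77.3%, with Mitf-201 at 22.4% and 4.07%. With either library left out, the share of Mitf-201 was 0% to 34.8% and that of transcripts with an upstream first exon 58.3% to 100%. TPM over genes alone raised every level, Kit to 17.1 and Rab38 to 10.3. No paired analysis was possible because the design has 1 group. Mlana, Mlph and the Mitf transcripts are limited by depth.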
